A study of Mus musculus with 6 samples.

Results

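The genes described here encode enzymes and carriers of the citrate cycle, of anaplerosis (the refilling of the cycle's intermediates) and of the shuttles that carry reducing equivalents into mitochondria. They are a list of 32 named genes, each read from the probe set of highest mean log2 signal on 6 mouse Affymetrix arrays. A probe set with that symbol alone was found for 31 of the 32, out of 18193 such genes on the array, and 30 were bright enough to test among 11703 tested genes. Mpc2 was not analysed here, and Slc25a13 was too dim to test.

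The arrays hold RNA of isolated pancreatic islets, 3 from control mice and 3 from mice labelled VhlhKO. All 6 labels name the same model, RIP2-Cre with Vhlh(fl/fl), in which Cre recombinase under the rat insulin promoter removes the floxed Vhlh gene in beta cells. The sources used here do not say which of these alleles the control mice carried. The arrays numbered 01, 02 and 03 came from mice of 26, 20 and 18 weeks in both genotypes, recorded as male, female and male. The series describes 3 batches of islets per genotype without saying how many mice gave a batch, so the tests below weigh differences against the spread of batches. RNA was converted with a Two-Cycle cDNA kit, per the labels. Whole islets also contain alpha, delta, vessel and stromal cells in which the gene is intact. In such bulk samples fewer cells of a type and less RNA per cell cannot be told apart.

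Acetyl groups from pyruvate or fatty acids enter the citrate cycle through citrate synthase and leave as carbon dioxide, while the reducing equivalents pass to the respiratory chain. Beta cells couple this oxidation to insulin release: ATP made from glucose closes potassium channels, and metabolites that leave mitochondria through pyruvate carboxylase, citrate export and the malic enzymes are regarded as further signals. Beta cells also rely on the glycerol phosphate and malate-aspartate shuttles to reoxidise cytosolic NADH. The von Hippel-Lindau protein marks the alpha subunits of hypoxia-inducible factor (HIF) for degradation, and HIF is known to raise glycolytic genes and, through the kinase Pdk1, to restrain the entry of pyruvate into the cycle.

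The islet hormone genes were bright on every array, with signals of 11545 to 31477 for Ins2, 31892 to 55684 for Gcg and 18157 to 29497 for Sst. Vhl, the targeted gene, had signals of 457, 639 and 839 in controls and 344, 358 and 467 in knockouts, a level of 61.7% of control that did not pass the threshold (limma adjusted p 0.9999). Its control and knockout signals overlapped. Vhl was lower in 3 of 3 same-numbered pairs (-0.41, -0.83 and -0.84 on the log2 scale), as 10.9% of all genes tested were. Its unadjusted p was 0.055, and 0.024 with the replicate number as a block (limma, adjusted p 0.9251 with the block). Where its probes lie relative to the deleted part was not analysed here. Of the marker lists, that of acinar cells varied most between arrays. The summed signal of 15 of 19 acinar markers ran from 143160 to 510560 in controls and from 13244 to 643150 in knockouts, with the lowest value of each genotype on the array numbered 03. The sum of 14 of 14 fibroblast and matrix markers ran from 6050 to 9897 in controls and from 8778 to 28140 in knockouts, and that of 14 of 14 endothelial markers from 9943 to 10965 and from 12685 to 17050. The sum of 13 of 16 beta-cell markers ran from 135320 to 184320 and from 111390 to 185790. Such a sum gives most weight to the brightest genes. Gene by gene, 4 of the 13 beta-cell markers lay above and 9 below 0, with a median log2 difference of -0.25. The 14 tested acinar markers all lay below 0 (median -1.05). The 13 tested fibroblast and matrix markers and the 13 tested endothelial markers all lay above 0 (medians 1.215 and 0.44). No marker had a signal of 0. The part of these differences in the results below was not tested. A fit with the acinar markers as a covariate is described below with its limit.

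No gene of the list passed the test between genotypes. Of the 30 tested genes 0 had an adjusted p under 0.05 (limma with an intensity trend, Benjamini-Hochberg over all genes), where 0.0171% of all genes tested did, and 0 passed with the replicate number as a block, where the share of all genes was again 0.0171%. At an unadjusted p under 0.05 there were also 0 of the 30 without and 0 with the block, against 2.56% and 4.99% of all genes. The log2 differences, knockout minus control, lay between -0.44 for Got1 and 0.33 for Pck2. Their median was 0.05, with 16 genes above and 14 below 0, and the median over all genes tested was 0.005. For 28 of the 30 the difference was smaller than its own standard error, as it was for 75.3% of all genes.

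Transcripts of glycolysis on the same arrays had larger differences, though none of the 12 tested passed the adjusted threshold (limma), which 0.0171% of all genes did, and 10 had an unadjusted p under 0.05, as 2.56% of all genes did. The 12 tested of 16 HIF-related glycolytic genes, a list chosen with earlier results of these data known, had a median log2 difference of 1.69, all 12 above 0. Ldha, which encodes a subunit of lactate dehydrogenase, had signals of 645, 1328 and 481 in controls and 5476, 5635 and 6100 in knockouts, a log2 difference of 2.95 (SE 0.37, adjusted p 0.0671). Its groups did not overlap, yet it missed the threshold here and passed without control 02 (limma adjusted p 0.0129). Slc2a1, a glucose transporter, differed by 2.06, Pdk1, the kinase that inhibits pyruvate dehydrogenase, by 1.71, and Pgk1, phosphoglycerate kinase, by 1.50. The lists were not tested against each other.

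**Figure D1:**
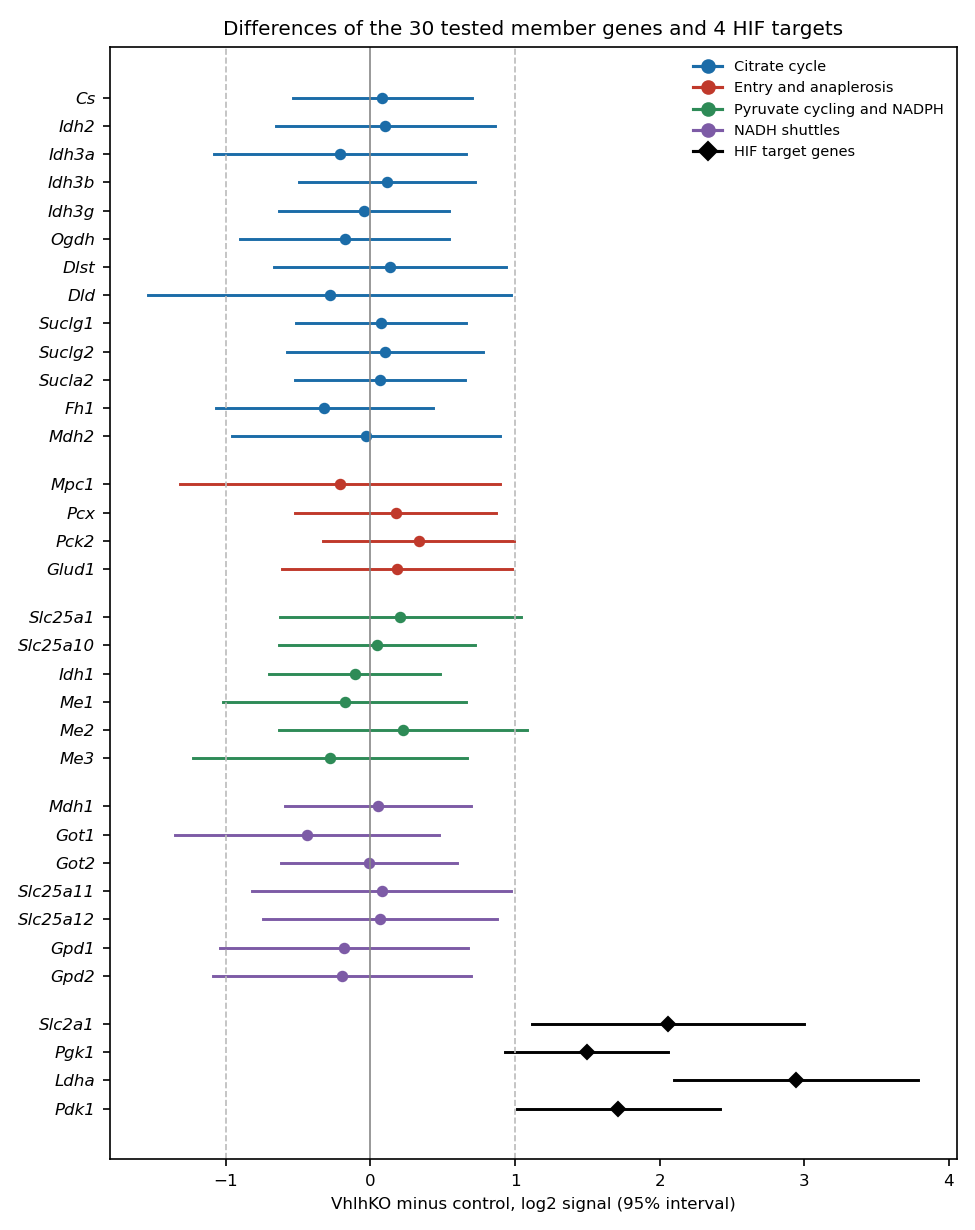
Log2 difference between VhlhKO and control islets (points) with the 95% interval of the limma fit (lines) for the 30 tested genes, coloured by role, and for 4 HIF target genes as diamonds; dashed lines mark a 2-fold change. Each of the 30 intervals includes 0, and the points lie between -0.44 and 0.33, while the 4 HIF targets lie between 1.50 and 2.95.

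HIF binds DNA at a core of ACGTG or GCGTG, so the upstream sequences of these genes were read for those letters. RefSeq promoter sequences of build GRCm38.p6 were matched for 29 of the 32 genes by symbol; Idh3a, Gpd1 and Me2 had no entry. In the 250 bases before a start, either strand, 20 of the 29 genes held at least 1 such core (69.0%), as did 47.1% of protein-coding genes and 14 of 16 genes of the glycolytic list (87.5%). By single windows the shares were 64.1% for the list and 44.0% for protein-coding genes. Genes with several annotated starts have several windows and more chances of a match. Both cores contain the letters CG, and the groups of genes were not matched for base composition or expression. Slc25a1 held 7 cores, the most of the list, followed by Ogdh with 4. A match of 5 letters is a description of the sequence and not a binding site.

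The last 100 bases before the start are shown for Ldha, which had the glycolytic group's widest difference among the named genes, and for 5 genes of the list. None of the 6 passed the adjusted threshold in the fit of all arrays. The 5 were picked by name and not by a rule. Each holds a core in this stretch, which most genes of the list with a matched sequence, such as Cs, lack. The share over all genes was not computed for 100 bases. Where a gene had several annotated starts, the one with most cores in the stretch was taken, which could affect Ldha only. Among these 6 alone, the cores of Ldha are all of the ACGTG form and those of the others all of the GCGTG form. Letters run 5′ to 3′ on the gene's strand, and capitals mark ACGTG or GCGTG or their reverse complements CACGT and CACGC. In Ldha the letters CACGTG hold a core on each strand, and in Slc25a1 a pair of cores adjoin.
Ldha, chr7:46845704-46845803, plus strand: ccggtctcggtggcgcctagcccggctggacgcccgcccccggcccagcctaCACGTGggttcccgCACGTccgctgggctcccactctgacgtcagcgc
Slc25a1, chr16:17928220-17928319, minus strand: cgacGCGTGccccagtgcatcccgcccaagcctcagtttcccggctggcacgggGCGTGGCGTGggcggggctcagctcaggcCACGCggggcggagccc
Pck2, chr14:55540166-55540265, plus strand: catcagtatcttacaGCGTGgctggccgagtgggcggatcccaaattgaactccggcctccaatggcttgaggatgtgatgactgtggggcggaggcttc
Idh2, chr7:80115351-80115450, minus strand: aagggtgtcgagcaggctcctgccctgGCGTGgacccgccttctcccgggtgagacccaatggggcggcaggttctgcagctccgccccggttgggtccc
Mdh2, chr5:135778549-135778648, plus strand: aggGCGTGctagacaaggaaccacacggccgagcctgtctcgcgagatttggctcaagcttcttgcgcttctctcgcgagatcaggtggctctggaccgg
Fh1, chr1:175625636-175625735, minus strand: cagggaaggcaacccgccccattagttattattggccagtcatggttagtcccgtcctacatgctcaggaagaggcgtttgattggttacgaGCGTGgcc

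The printed stretch of Slc25a1 holds 4 cores and that of Ldha 3, while those of Pck2, Idh2, Mdh2 and Fh1 hold 1 each. Of these, Ldha differed by 2.95 on the log2 scale, and the others lay between -0.32 and 0.33. A link between cores and differences was not tested.

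Enzymes of the cycle itself were all tested: 7 of the 13 lay above and 6 below 0, with a median log2 difference of 0.07 and a range from -0.32 to 0.14. Each of the 13 differences was smaller than its standard error. For 10 of the 13 the 95% interval lay within a 2-fold change either way. Cs, citrate synthase, joins acetyl-CoA to oxaloacetate, and its level in knockouts was 1.06 times that of controls with an interval from 68.9% to 162.9% of control. Its control signals ran from 3952 to 5061 and its knockout signals from 3891 to 6468.

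The NAD-linked isocitrate dehydrogenase, the cycle's regulated oxidising step, has catalytic subunit Idh3a and subunits Idh3b and Idh3g. Idh3a signals were 3228, 5655 and 3036 in controls and 1979, 4633 and 3893 in knockouts. Knockout 01 lay below every control and control 02 above every knockout. Among the other 4 values, the knockouts lay above the controls. The log2 difference was -0.21 (SE 0.39, n = 3 per group, adjusted p 0.9999). Idh3b differed by 0.11 and Idh3g by -0.04, so the 3 subunits were on both sides of 0. Idh2, the mitochondrial enzyme that yields NADPH, differed by 0.10, with its lowest signal, 2048, on control 03.

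The oxoglutarate dehydrogenase complex is built of Ogdh, Dlst and Dld, of which Dld also serves pyruvate dehydrogenase. Ogdh signals were 1711, 1699 and 1524 in controls and 2225, 1078 and 1279 in knockouts. The controls were close together, and the knockouts lay both above and below them (log2 difference -0.18, SE 0.32). Dlst, the succinyltransferase core, differed by 0.14 (SE 0.35). Dld signals were 884, 1128 and 1219 in controls and 412, 700 and 2347 in knockouts. Its knockout SD of 1.29 on the log2 scale was the largest of any tested gene of the list in either genotype. The Dld difference of -0.28 (SE 0.56) was -0.99 without knockout 03, with an unadjusted p of 0.0224 and an adjusted p of 0.9997, and it was 0.26 without knockout 01. With the mean over its probe sets it was -0.91. That mean includes a further Dld probe set, above the array median on no array and too dim to test. Its signals were 61.2, 29.7 and 13.0 in controls and 8.90, 11.5 and 9.30 in knockouts.

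Succinyl-CoA ligase pairs the shared alpha subunit Suclg1 with an ADP-linked (Sucla2) or a GTP-linked (Suclg2) beta subunit. All 3 had small differences, 0.08 for Suclg1, 0.07 for Sucla2 and 0.10 for Suclg2. The Suclg2 control signals of 2136, 2114 and 2173 were nearly equal, while the knockouts had 1612, 3159 and 2385 and surrounded them. Fh1, fumarase, had signals of 3113, 3752 and 7061 in controls and 3540, 3128 and 3838 in knockouts. Control 03 alone stood high, and the other 5 values shared one range. The Fh1 difference was -0.32 (SE 0.33), the largest of the cycle, and it was 0.03 without control 03. Mdh2, the mitochondrial malate dehydrogenase, had signals from 9496 to 20187 in controls and from 7030 to 18357 in knockouts and differed by -0.03 (SE 0.41).

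**Figure D2:**
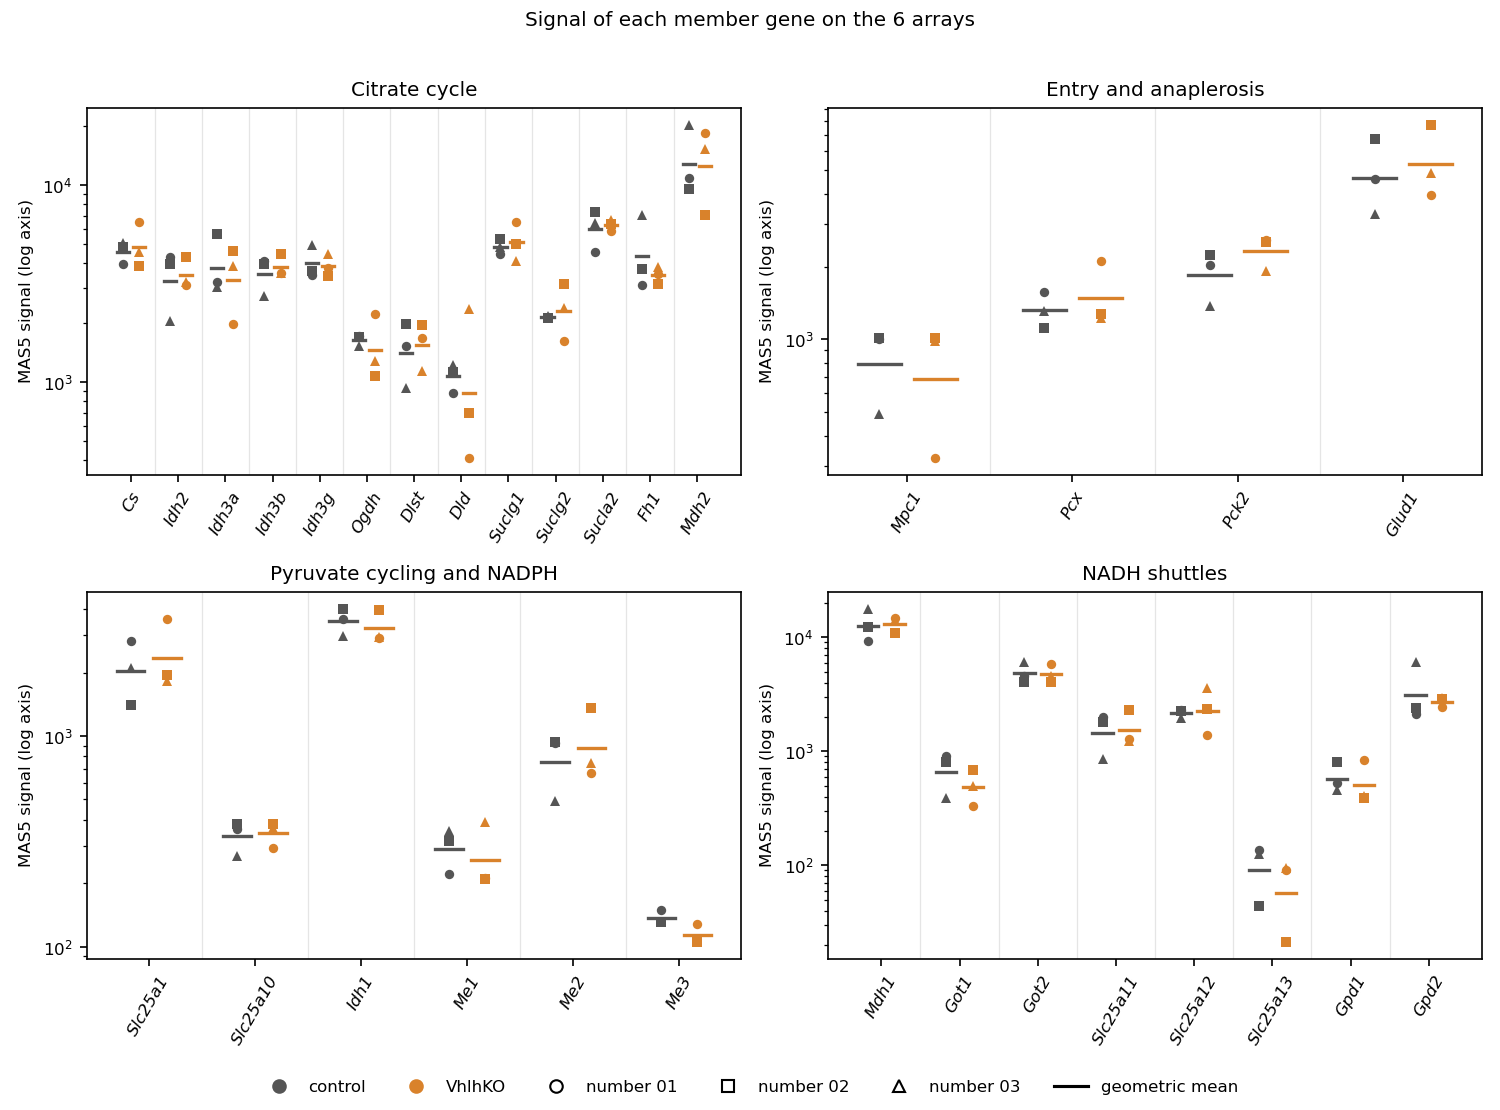
MAS5 signal on each array (log axis) for the 31 genes with a probe set, in 4 panels by role; grey is control, orange is VhlhKO, the symbol gives the array number and the bar the geometric mean. Control and knockout points overlap for every tested gene but Me3, and single arrays stand apart for genes such as Fh1 and Gpd2 (control 03) or Dld (knockout 03).

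Pyruvate enters mitochondria through a carrier of subunits Mpc1 and Mpc2 and is turned to oxaloacetate by Pcx, pyruvate carboxylase, the main anaplerotic enzyme of beta cells. Mpc1 signals were 1004, 1009 and 492 in controls and 323, 1014 and 983 in knockouts. One array in each genotype stood low, control 03 and knockout 01, and the log2 difference was -0.21 (SE 0.49). Pcx signals were 1564, 1114 and 1314 in controls and 2112, 1273 and 1228 in knockouts. Knockout 01 was the highest and the other 5 were close, with a difference of 0.18 (SE 0.31) and an interval from 69.8% to 182.9% of control.

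Pcx is also the target of 4 array control probe sets, which were left out of the test. The one named for the 3′ end of the transcript gave 1544, 1084 and 1670 in controls and 1969, 1021 and 1225 in knockouts, and so overlapped as the tested probe set did. The one named for the 5′ end gave signals of 17.8 to 145 over the 6 arrays, and those named for the middle gave 13.1 to 114 and 103 to 299. Levels of different probe sets cannot be compared, since their probes differ.

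Pck2, the mitochondrial phosphoenolpyruvate carboxykinase, draws oxaloacetate out of the cycle and had the largest positive difference of the list. Its signals were 2027, 2242 and 1371 in controls and 2574, 2537 and 1913 in knockouts. Knockout values were higher in 3 of the 3 same-numbered pairs, but knockout 03 lay below 2 controls. The log2 difference was 0.33 (SE 0.29, 1.26-fold, interval 79.9% to 199.1% of control, adjusted p 0.9999). It ranged from 0.12 without control 03 to 0.48 without control 02. A second Pck2 probe set differed by 0.08. Glud1, glutamate dehydrogenase, which feeds oxoglutarate into the cycle, had signals of 4597, 6721 and 3288 in controls and 3944, 7718 and 4886 in knockouts. The array numbered 02 was the highest of each genotype, and the difference was 0.18 (SE 0.35).

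Carbon leaves mitochondria as citrate through Slc25a1 or as malate through Slc25a10, and Idh1 and Me1 use the exported carbon to make cytosolic NADPH. Of this group with the mitochondrial malic enzymes, 3 genes lay above and 3 below 0, with a median of -0.03. Slc25a1 signals were 2823, 1399 and 2111 in controls and 3608, 1941 and 1833 in knockouts. The array numbered 01 was the highest of each genotype, and the log2 difference was 0.21 (SE 0.37). Slc25a10 differed by 0.05, and Idh1 by -0.11 with an interval from 61.6% to 139.8% of control. Me1 had signals from 222 to 354 in controls and from 209 to 390 in knockouts, with a difference of -0.18.

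Me2 and Me3, the malic enzymes inside mitochondria, turn malate to pyruvate. Me2 signals were 923, 934 and 490 in controls and 664, 1358 and 749 in knockouts. They overlapped widely, with a difference of 0.23 (SE 0.38). Me3 was the 1 gene of the list whose groups did not overlap, where 6.71% of all genes tested did not. Its signals were 150, 131 and 131 in controls and 128, 105 and 107 in knockouts. The gap between the highest knockout and the lowest control was small, and the signals were close to the array medians of 102 to 123, with 5 of the 6 above them. The log2 difference was -0.28 (SE 0.42, adjusted p 0.9999). The standard error exceeds the spread of the 3 values in each group (SD 0.11 and 0.15) because limma draws the variance of dim genes toward that of other dim genes.

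The malate-aspartate shuttle runs through malate dehydrogenases and aspartate aminotransferases on both sides of the inner membrane and through the carriers Slc25a11, Slc25a12 and Slc25a13. Got1, the cytosolic aminotransferase, had the largest negative difference of the list. Its signals were 899, 801 and 389 in controls and 331, 681 and 497 in knockouts. The groups overlapped, with the lowest signal on knockout 01 and the next on control 03. The log2 difference was -0.44 (SE 0.40, adjusted p 0.9999), from -0.82 without control 03 to -0.17 without knockout 01. Got2, its mitochondrial counterpart, differed by -0.01 and Mdh1, the cytosolic dehydrogenase, by 0.05.

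The oxoglutarate-malate carrier Slc25a11 differed by 0.08 and the aspartate-glutamate carrier Slc25a12 by 0.07. Slc25a12 control signals ran from 1960 to 2280, while knockouts had 1377, 2337 and 3610 and lay on both sides. Slc25a13, the other aspartate-glutamate carrier, gave 136, 43.7 and 126 in controls and 91.1, 21.2 and 93.8 in knockouts. It was above the array median on 2 of 6 arrays and its level was not tested.

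The glycerol phosphate shuttle joins the cytosolic enzyme Gpd1 to Gpd2 on the inner membrane, an enzyme that beta cells express strongly. Gpd2 signals were 2135, 2375 and 6009 in controls and 2427, 2854 and 2920 in knockouts. Control 03 was more than double every other array, and knockouts otherwise lay just above the remaining controls. The log2 difference was -0.20 (SE 0.39), and it was 0.28 without control 03. Gpd1 signals were 522, 798 and 456 in controls and 835, 386 and 403 in knockouts. Knockout 01 and control 02 were the high arrays, and the difference was -0.18 (SE 0.38).

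The intervals show what size of change these arrays could still contain. For 19 of the 30 genes the 95% interval lay within a 2-fold change either way, as it did for 46.0% of all genes tested. The other 11 were Idh3a, Dld, Fh1, Mpc1, Slc25a1, Me1, Me2, Me3, Got1, Gpd1 and Gpd2. The lowest bound was that of Dld, at 34.5% of control, and the highest that of Me2, at 212.2%. The median within-group SD over the 30 genes was 0.45 on the log2 scale, close to 0.43 over all genes tested. A p-value above the threshold does not show that the genotypes were alike, and smaller changes than these bounds remain possible for each gene.

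Differences within the same-numbered pairs went both ways for most genes. Pck2 was higher in 3 of 3 pairs, where 13.8% of all genes tested were, and Idh1 and Me3 were lower in 3 of 3, where 10.9% of all genes were. Arrays of one number share age and recorded sex, though over the 30 genes the arrays numbered 01 did not vary together (correlation -0.06). The widest spread of pair differences was that of Mpc1, at -1.64, 0.01 and 1.00 for the numbers 01, 02 and 03. Those of Dld were -1.10, -0.69 and 0.94 and those of Got1 -1.44, -0.24 and 0.35. Gpd2 ran the other way, at 0.19, 0.27 and -1.04, and Fh1 likewise, at 0.19, -0.26 and -0.88. The summed acinar markers were lowest on both arrays numbered 03. Whether exocrine RNA took part in these spreads was not tested. The fit of the genotype difference with the acinar covariate turned the sign of 2 of the 30 genes, Mdh1 (to -0.01) and Slc25a12 (to -0.07). None of the 30 passed in it. Its limit is that the 14 tested acinar markers all lay below 0 (median log2 difference -1.05). Their list summed to 13244 on knockout 03, against at least 143160 in controls. The fit therefore cannot separate exocrine RNA from genotype or from other features of that array. The covariate also moved other differences by more than 1.5 times, among them Dld from -0.28 to -0.62 (unadjusted p 0.113), Me1 from -0.18 to -0.34 and Dlst from 0.14 to 0.30.

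**Figure D3:**
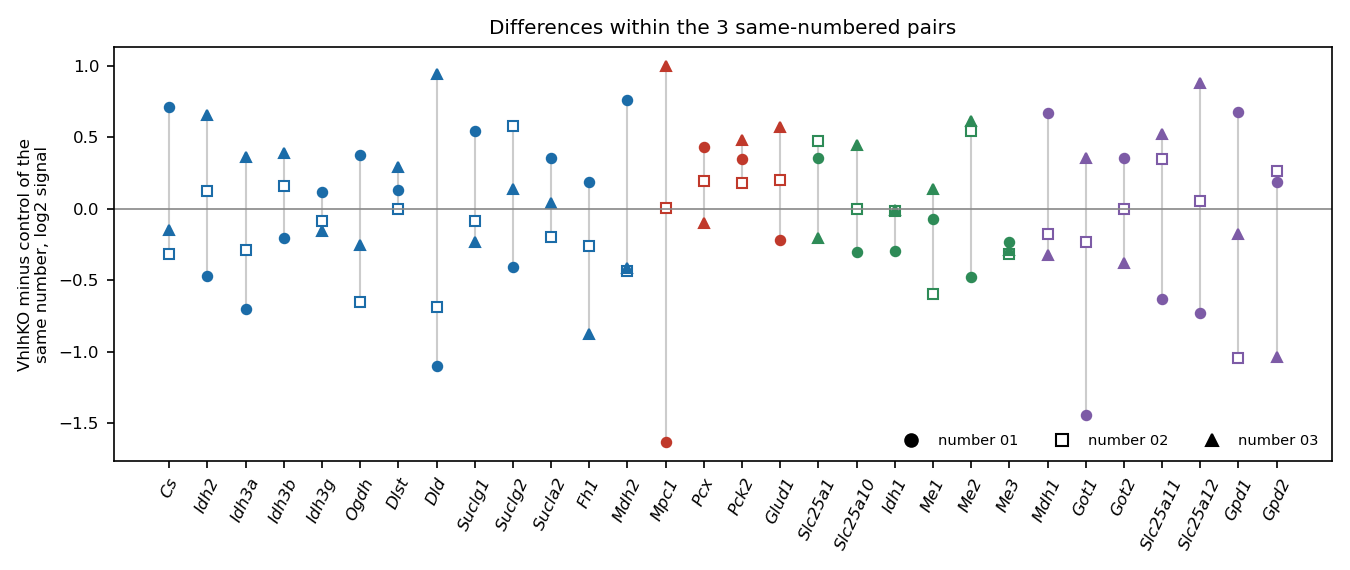
Log2 difference between the knockout and the control array of the same number for the 30 tested genes, with circles for number 01, open squares for 02 and triangles for 03; grey lines join the lowest and highest pair. Pck2 has 3 values above 0, Idh1 and Me3 have 3 below 0, and the other 27 genes have values on both sides.

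The list had 72 probe sets, of which 59 were bright enough to test, and 0 passed (limma; 0 also had an unadjusted p under 0.05), where 0.0201% of all probe sets tested did. Of 19 genes with more than 1 tested probe set, 11 had probe sets that all lay on one side of 0. Those of Ogdh, Dlst, Suclg2, Mdh2, Glud1, Me2, Mdh1 and Slc25a12 lay on both sides. The share over all genes with several tested probe sets was not computed. Probe sets of a gene read the same RNA samples, so a shared sign among them is not an independent repeat of the difference. The 4 of Idh3a were all below 0, from -0.42 to -0.21, as were the 3 of Gpd1 (-0.31 to -0.12) and the 3 of Gpd2 (-0.35 to -0.03). The 3 of Cs were all above 0, from 0.02 to 0.13. Dimmer probe sets strayed furthest. A second Got2 probe set gave 283, 357 and 168 in controls and 54.3, 226 and 216 in knockouts, a difference of -0.89 (SE 0.59) beside -0.01 for the brighter one. One of Me2 differed by 0.59 (SE 0.52) and one of Mdh1 by 0.81 (SE 1.03), the latter with signals from 9.76 to 149. Mdh1 was read from an _x_at probe set, whose probes may cross-hybridise, and without such probe sets its difference was -0.02.

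**Figure D4:**
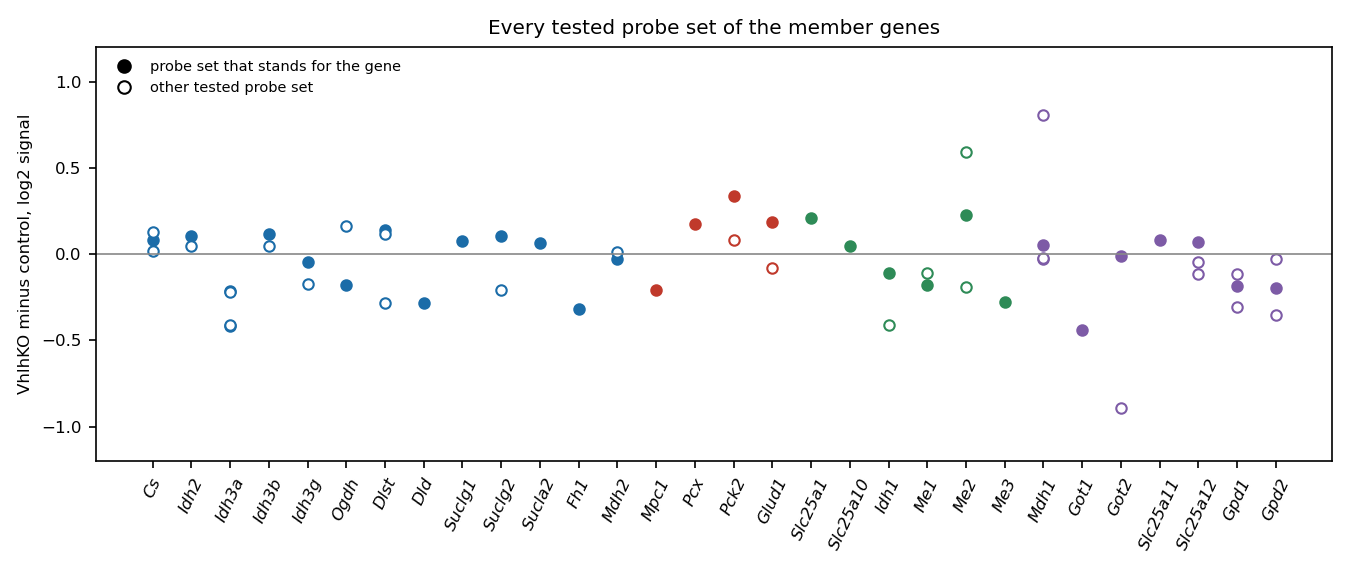
Log2 difference between VhlhKO and control for each of the 59 tested probe sets of the list, by gene; filled points stand for the gene in the other plots and open points are its further probe sets. The filled points lie between -0.44 and 0.33, and the open points reach from -0.89 (Got2) to 0.81 (Mdh1).

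Of 30 related genes of the cycle, of amino-acid and propionate entry and of mitochondrial transport, 22 were tested and 0 passed in either direction (limma; 0 also had an unadjusted p under 0.05), where 0.0171% of all genes passed, with 10 above and 12 below 0 and a median log2 difference of -0.08. Gpt2, the mitochondrial alanine aminotransferase, had signals of 414, 436 and 366 in controls and 940, 432 and 665 in knockouts. Knockouts 01 and 03 were above all controls and knockout 02 was not, and the difference was 0.68 (SE 0.33, adjusted p 0.9999). It was 0.41 without knockout 01 and 0.97 without knockout 02 (limma unadjusted p 0.0168, adjusted p 0.9971). Slc25a22, a mitochondrial glutamate carrier, had its highest signal, 2075, on control 03 and its lowest, 355, on knockout 03, and differed by -0.76 (SE 0.49), or by -0.24 without control 03. Slc25a4, an exchanger of ADP and ATP, differed by 0.28 (SE 0.22) and was higher in 3 of 3 pairs, as 13.8% of all genes tested were. D2hgdh, which oxidises hydroxyglutarate, differed by 0.50 (SE 0.41), and by 0.05 without control 02.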

How the data were processed

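The authors deposited 1 linear intensity for each probe set and array. The submitters' processing notes name GCOS 1.4 and MAS5. Arrays share a 2% trimmed mean of 500.003, as global scaling gives. Of 45101 probe sets, 64 array controls were left out, and 34945 have 1 gene symbol in the platform annotation of 2016, 932 several and 9160 none. Each gene was represented by the probe set brightest on average (log2) over the 6 arrays, _x_at probe sets included, and tested if above the array median on at least 3 of 6 arrays. Log2 signals were compared across all 11703 genes in R 4.3.3 with limma 3.58.1 (lmFit, eBayes with intensity trend, Benjamini-Hochberg, threshold 0.05). Beforehand the fit was checked on simulated data, whose arrays were drawn independently, without the correlations within pairs given below. Errors are moderated standard errors. The number of arrays limits the precision.

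Members, roles and lists were chosen with earlier results of these data known. All members are named. Values on every array are given for the 3 of lowest p in each role and for non-overlapping groups; Dld, Mpc1, Slc25a12, Slc25a13 and Suclg2 were added after their values were seen. For related genes the 4 of lowest p are named. Over all genes tested, deviations from the group means correlated at 0.14, 0.41 and 0.42 within the pairs numbered 01, 02 and 03. By the rule of 0.1 the numbers were taken to pair the samples, which share age and recorded sex. Control 01 with knockout 02 also reached 0.14. Over the tested members alone the pairs gave -0.06, 0.62 and 0.30, so number 01 fell short of that rule. There control 01 with knockout 02 gave 0.47, and control 03 with knockout 01 gave 0.30. Alternatives were the block, leaving out each array, other probe set rules and filters, a pseudocount of 32, quantile normalization, array weights and an acinar covariate.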

Additional observations from a re-analysis of the deposited data

How the results depend on the processing

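No member passed under any of the 15 alternatives, and the smallest adjusted p was 0.995. The replicate block left the values as they were and changed no member's call. For all genes, leaving out 1 array gave 0 to 4 calls in place of 2 (0 without control 01, knockout 01 or knockout 03, 4 without control 02 or knockout 02), and the strict filter, signal above the median on all 6 arrays, gave 1. Without _x_at probe sets there were 2 calls, or 6 with the block. The members with an unadjusted p under 0.05 were 0 to 1 over the 6 fits, the 1 being Dld. Of 448 member values under alternatives, 390 kept their sign and 58 did not. The block, the strict filter and the absence of a filter cannot change a difference, so their signs were kept by design. Leaving out _x_at probe sets could alter Mdh1 alone. The 390 therefore overstate how stable the signs were. The sign held in all 6 leave-one-out fits for 5 of 30 members (Pck2, Idh1, Me1, Me3, Got1), 16.7% against 42.5% of all genes, but Idh1 ran from -0.25 to -0.011 and Me1 from -0.47 to -0.025, close to 0. The members' median was -0.054 to 0.054 on leaving out 1 array, -0.0099 with the mean of probe sets and -0.024 with the acinar covariate; the glycolytic median was 1.30 with the mean of probe sets.

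Leaving out 1 array gave log2 differences of both signs for 25 members: Cs -0.12 to 0.24, Idh2 -0.23 to 0.30, Idh3a -0.46 to 0.16, Idh3b -0.076 to 0.22, Idh3g -0.15 to 0.12, Ogdh -0.48 to 0.038, Dlst -0.16 to 0.38, Dld -0.99 to 0.26, Suclg1 -0.096 to 0.23, Suclg2 -0.13 to 0.36, Sucla2 -0.13 to 0.21, Fh1 -0.56 to 0.030, Mdh2 -0.31 to 0.38, Mpc1 -0.55 to 0.33, Pcx -0.076 to 0.32, Glud1 -0.088 to 0.45, Slc25a1 -0.10 to 0.45, Slc25a10 -0.11 to 0.16, Me2 -0.090 to 0.43, Mdh1 -0.17 to 0.30, Got2 -0.15 to 0.15, Slc25a11 -0.30 to 0.30, Slc25a12 -0.27 to 0.43, Gpd1 -0.54 to 0.054 and Gpd2 -0.47 to 0.28. Other reversed signs were Mdh1 -0.022 without _x_at probe sets; Suclg2 -0.054, Mdh1 -0.055, Slc25a12 -0.030 and Gpd1 0.087 with the mean of probe sets; Idh2 -0.11, Idh3b -0.00028, Idh3g 0.071, Dlst -0.033, Mdh2 0.091, Slc25a10 -0.020, Me1 0.0023, Got2 0.041, Slc25a11 -0.15 and Gpd2 0.15 with array weights; and Mdh1 -0.015 and Slc25a12 -0.069 with the acinar covariate. The cause was not tested. Ldha passed without control 02 (adjusted p 0.0129), and Pgk1 with the mean of probe sets (0.0289). The deposited values carry no background measure used here, so the array median stood in for one, and Me3 and Slc25a13 lay near it.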
